A study of Mus musculus with 4 samples.

Results

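The autophagy genes described here are 36 genes of the core machinery, its cargo receptors and its transcriptional regulator Tfeb, chosen by gene symbol and read as log2 array signals in mouse type 1 conventional dendritic cells (cDC1). Probe sets annotated to 1 of these symbols were found for 35 of the 36 genes, on 36 probe sets, out of 17535 named genes counted on the array. Optn was not analysed here. The cells were XCR1-deficient (KO) with LPS and XCL1, KO with LPS, wild type (WT) with LPS and XCL1, and WT with LPS, with 1 array in each group. All came from C57BL/6 mice, labelled female and 10 weeks old, and all had received lipopolysaccharide (LPS, 100 ng/ml), a ligand of Toll-like receptor 4, in complete RPMI medium, so no array shows cells without LPS. XCL1, the chemokine ligand of XCR1, was recombinant mouse protein at 100 ng/ml. The sources used here do not state how Xcr1 was disrupted, which tissue gave the cells, whether animals were pooled, or how long treatment lasted. Because each group is a single array, every difference below lacks replicates, an error and a test.

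Autophagy delivers cytosol and organelles to lysosomes in a double membrane. A kinase complex around ULK1 starts it, a lipid kinase complex around Beclin 1 marks the growing membrane with PI3P, and a pair of ubiquitin-like conjugation systems attaches LC3 and GABARAP proteins to that membrane, where cargo receptors bind them. In dendritic cells autophagy feeds cytosolic antigen into MHC class II compartments, and a related use of the LC3 machinery acts on phagosomes.

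Several features of the arrays bear on every genotype difference. Correlations between arrays across genes ran from 0.983 to 0.993. The targeted gene Xcr1 had log2 signals of 5.11 and 5.54 on the KO arrays with and without XCL1, against 7.19 and 6.42 on the WT arrays. Of 12 cDC1 markers, 10 passed the limit on signal (5.43, the median of all values, reached on at least 1 array). Itgae stayed below it on all 4 arrays and Clec9a was not analysed here. The 10, which include Xcr1, averaged 7.91 and 7.91 in KO with and without XCL1, against 8.21 and 8.11 in WT. In each pair 7 of the 10 were below 0 in KO minus WT, Xcr1 among them, against 56.8% and 60.1% of all genes. Xcr1 was the lowest, at -2.08 with XCL1 and -0.87 without it, so the KO means rest in part on the targeted gene. Flt3, Irf8 and Batf3 were above 0 in both pairs. Xist had signals of 4.57 and 4.64 in KO against 7.91 and 7.95 in WT, and the Y-linked genes Eif2s3y, Kdm5d and Uty lay between 7.01 and 8.89 on all 4 arrays, which goes against the female label. The array names also begin differently for the KO and the WT arrays. Sex of the cells, whatever the array names separate, and genotype therefore cannot be told apart. All 7 B cell markers past the limit were below 0 in KO minus WT in both pairs, with mean signals of 7.65 and 7.62 in KO against 8.26 and 8.22 in WT. T cell markers (6 past the limit) averaged 6.33 and 6.45 in KO against 6.84 and 6.98 in WT, and plasmacytoid DC markers (6) averaged 8.40 and 8.39 against 8.72 and 8.64, with 4 of 6 below 0 in each pair while Bst2 and Tcf4 were above 0. In KO cells with XCL1 minus without it, Bst2 was at 0.97 and Ly6d at -1.12, the extremes of this list. Its median there was 0.06, with 3 of 6 above 0. The 7 neutrophil markers past the limit had a median of 0.02 there, with 4 above 0 and S100a8 highest at 0.61. In this comparison Gabarapl1 differed most among the members. Macrophage and monocyte markers (7) averaged 8.0 and 7.94 in KO against 7.74 and 7.79 in WT, with 5 of 7 above 0 with LPS and XCL1 and 4 of 7 with LPS. Fcgr1, at 1.19 and 1.00, carried most of that difference, and Csf1r was at -0.16 and -0.32. For neutrophil markers (7) the means were 7.45 and 7.32 in KO against 6.96 and 7.04 in WT, and for red cell markers (3) 6.85 and 6.92 against 5.64 and 5.63. The part of these cells in the autophagy values was not tested, and fewer cells of a type and less RNA per cell cannot be told apart in such samples.

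Promoters are shown for the 2 autophagy genes that reached 1.5-fold in any comparison, Gabarapl1 and Atg4c. RefSeq gives 2 starts for Atg4c, and the first is shown. Ulk2 is shown because it lay closest below that threshold. Atg3 is shown as the 1 member whose promoter held TCACGTGA, called the CLEAR palindrome here, a core of the sites read by TFEB-family factors. Each is the 250 bases before a RefSeq transcription start in build GRCm38.p6, 5′ to 3′ on the gene's strand, and capitals mark the motif named beside it.
Gabarapl1, chr6:129532942-129533191 (+ strand), none of the 4 motifs: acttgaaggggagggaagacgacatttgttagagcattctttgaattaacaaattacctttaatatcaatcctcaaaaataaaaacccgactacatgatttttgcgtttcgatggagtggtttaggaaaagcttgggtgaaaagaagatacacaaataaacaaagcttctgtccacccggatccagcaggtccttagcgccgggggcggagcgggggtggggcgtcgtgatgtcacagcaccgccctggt
Atg4c, chr4:99193684-99193933 (+ strand), none of the 4 motifs: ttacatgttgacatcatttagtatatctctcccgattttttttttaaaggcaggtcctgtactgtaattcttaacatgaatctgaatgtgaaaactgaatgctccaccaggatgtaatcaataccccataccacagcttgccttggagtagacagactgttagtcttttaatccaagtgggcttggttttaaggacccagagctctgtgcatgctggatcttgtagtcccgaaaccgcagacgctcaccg
Ulk2, chr11:61855093-61855342 (- strand), antioxidant response element core: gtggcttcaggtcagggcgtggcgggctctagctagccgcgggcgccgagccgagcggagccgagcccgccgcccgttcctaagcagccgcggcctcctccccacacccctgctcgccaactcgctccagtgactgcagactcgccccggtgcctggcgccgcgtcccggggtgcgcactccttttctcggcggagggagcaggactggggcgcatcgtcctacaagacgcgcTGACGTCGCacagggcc
Atg3, chr16:45158579-45158828 (+ strand), CLEAR palindrome: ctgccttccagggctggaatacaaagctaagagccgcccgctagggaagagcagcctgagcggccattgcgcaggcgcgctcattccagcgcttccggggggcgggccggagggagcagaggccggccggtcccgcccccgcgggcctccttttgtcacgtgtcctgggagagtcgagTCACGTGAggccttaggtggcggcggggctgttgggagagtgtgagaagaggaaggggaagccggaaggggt

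Motifs were searched on both strands in the 34 promoters that RefSeq gives for 29 members. The CLEAR palindrome TCACGTGA was found in Atg3 alone among the members, beginning 72 bases before the start, and in 0.785% of all 32851 promoters of this length. Its inner E-box CACGTG, which overlaps it, was found in Atg3, Atg5 and Atg7 and in 6.02% of all promoters. The antioxidant response element core TGACNNNGC was found in Atg13 and Ulk2 and in 10.2% of all. The FOXO site GTAAACA was found in no member and in 3.17% of all promoters. The members with a difference of 1.5-fold therefore shared none of these letters in this window.

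Among the autophagy genes, most signals lay close together on the 4 arrays. The range over the arrays had a median of 0.24 log2 units, against 0.29 for the 11083 genes past the limit. All 35 members passed the limit, 32 of them on every array. Atg4c and Map1lc3a did so on 3 arrays, and Wipi1 on 1 array, so Wipi1 passed only through the KO array with XCL1, where it was highest. As a scale for these numbers, 442 genes with several probe sets gave an SD per probe set of 0.18 for the XCL1 difference in WT, 0.21 for that in KO, 0.23 for KO minus WT with LPS and XCL1, and 0.22 with LPS alone. This SD compares probe sets of a gene on the same arrays, so it does not measure variation between samples or replicates. The lowest of the 4 signals was on the KO array with LPS for 20 of 35 members (57.1%), against 36.8% of all genes. That array also had the lowest median over the genes past the limit, 6.88. The other medians were 6.95 for KO with XCL1 and 7.05 and 6.98 for WT with and without it. The count was not repeated after centring each array on its gene median, so it can rest on the scaling.

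**Figure D1:**
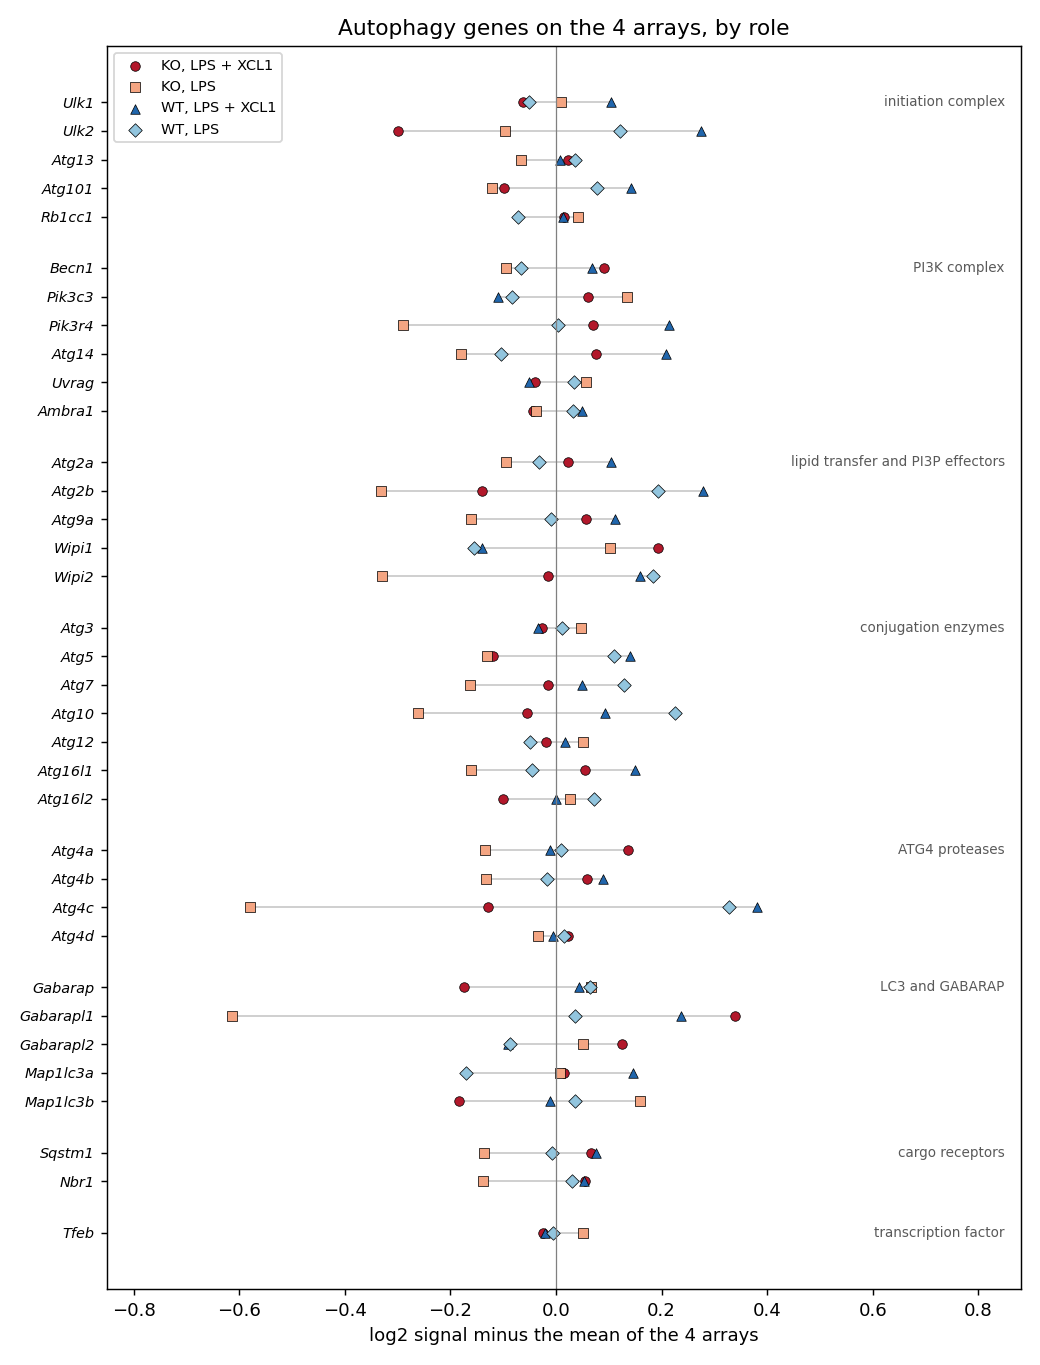
Log2 signal of each of the 35 autophagy genes minus its mean over the 4 arrays (x axis, log2 units), by role from top to bottom, with 1 symbol for each array and a line over the range. Gabarapl1 and Atg4c span 0.95 and 0.96 log2 units, both with their lowest value on the KO array with LPS, and the smallest range is 0.06 for Atg4d.

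XCL1 added to LPS asked what the chemokine does in cells without and with its receptor. In KO cells, 1 of 35 members (2.86%) reached 1.5-fold in size, a log2 difference of 0.58, against 1.01% of all genes for either direction and 0.469% for higher values. In WT cells 0 of 35 did, against 0.559% of all genes (0.226% higher and 0.334% lower). The member was Gabarapl1, and it was higher with XCL1.

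Gabarapl1 encodes a GABARAP-family protein that is conjugated to autophagosome membranes. Its log2 signal was 6.57 with XCL1 and 5.62 without it in KO cells, and 6.47 with XCL1 and 6.27 without it in WT cells. The KO array with LPS stood apart below the other 3, which lay within 0.30 of one another. XCL1 therefore went with a 1.94-fold higher signal in KO cells (0.95) and a 1.15-fold higher one in WT cells (0.20). The value in KO was the fifth highest of all genes, at rank 5 of 11083. The difference between the XCL1 effects, WT minus KO, was -0.75, and Gabarapl1 was the 1 member of 35 (2.86%) to reach 1.5-fold there, against 2.91% of all genes, 1.38% higher and 1.53% lower. Over the members 17 of 35 (48.6%) were above 0 in this difference, against 47.7% of all genes. The same KO array enters each of these values and the genotype difference with LPS, and there is no second array of that group.

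The other ubiquitin-like proteins did not share the Gabarapl1 pattern. Gabarap, the family's founding member, had signals of 11.35 with XCL1 and 11.59 without it in KO cells, and of 11.57 and 11.59 in WT cells. Its second probe set gave 9.23 and 9.41 in KO and 9.49 and 9.55 in WT, so both probe sets had their lowest value on the KO array with XCL1, the array on which Gabarapl1 was highest. Map1lc3b, the LC3 protein commonly used to follow autophagosomes, gave 8.82 with XCL1 and 9.16 without it in KO cells, against 8.99 and 9.03 in WT cells. Its XCL1 difference in KO was -0.34, the lowest of the 35 members. Gabarapl2 stayed between 7.11 and 7.33 on all arrays. Map1lc3a was dim, at 5.57 and 5.56 in KO with and without XCL1 and 5.70 and 5.38 in WT, the last below the limit.

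The remaining members stayed within 1.5-fold with XCL1 in both genotypes. In KO cells the next values after Gabarapl1 were 0.45 for Atg4c, which lay below the limit on the array without XCL1 and differed by 0.12 when measured against the limit, 0.36 for Pik3r4, the regulatory subunit VPS15 of the lipid kinase, and 0.31 for Wipi2, a PI3P-binding protein that recruits ATG16L1. In WT cells the largest values were 0.32 for Map1lc3a and 0.31 for Atg14, the Beclin 1 partner that directs the lipid kinase to autophagosome formation. Atg14 had signals of 6.61 with XCL1 and 6.36 without it in KO cells, and of 6.74 and 6.43 in WT cells, so its signal was higher on both arrays with XCL1. Pik3r4 showed the same order, with 7.05 and 6.69 in KO and 7.19 and 6.98 in WT. For Atg16l1, the scaffold of LC3 conjugation, the signals were 7.77 with XCL1 and 7.55 without it in KO, and 7.86 and 7.67 in WT.

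Both cargo receptors measured were bright and nearly level. Sqstm1, which encodes p62, gave 11.94 with XCL1 and 11.74 without it in KO, and 11.95 and 11.87 in WT. Nbr1, a relative of p62, gave 8.16 and 7.97 in KO and 8.16 and 8.13 in WT. For both, the array with the lowest signal was again KO with LPS. Tfeb, which drives lysosomal and autophagy genes, stayed between 5.69 and 5.77.

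Read as a list, the members' median XCL1 difference was 0.09 in KO, against 0.04 for all genes, and 0.03 in WT, against 0.03 for all genes. In KO 23 of 35 members (65.7%) were above 0, against 59.6% of all genes, and in WT 21 of 35 (60%) were, against 58.3%. Both arrays with XCL1 lay above both arrays without it for 11 members (31.4%), against 18.4% of all genes, and below for 6 (17.1%), against 9.36%. With centring the members above were 8 (22.9%), against 9.35% of all genes, and those below 6 (17.1%), against 17.9%. With cyclic loess they were 10 (28.6%), against 14.4%, and 4 (11.4%), against 12.5%, so the order of the shares below changed with the scaling. All 4 ATG4 proteases, which process and release LC3, were above 0 in KO (0.06 to 0.45), and 2 of them were in WT (-0.02 to 0.11). With centring 3 of 4 were in KO, with Atg4d below 0, and 1 of 4 in WT, and the 0.45 of Atg4c was 0.12 measured against the limit. With each array centred on the median of its genes, the members' medians became 0.02 in KO and -0.04 in WT, so the direction in WT rests on the scaling.

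**Figure D2:**
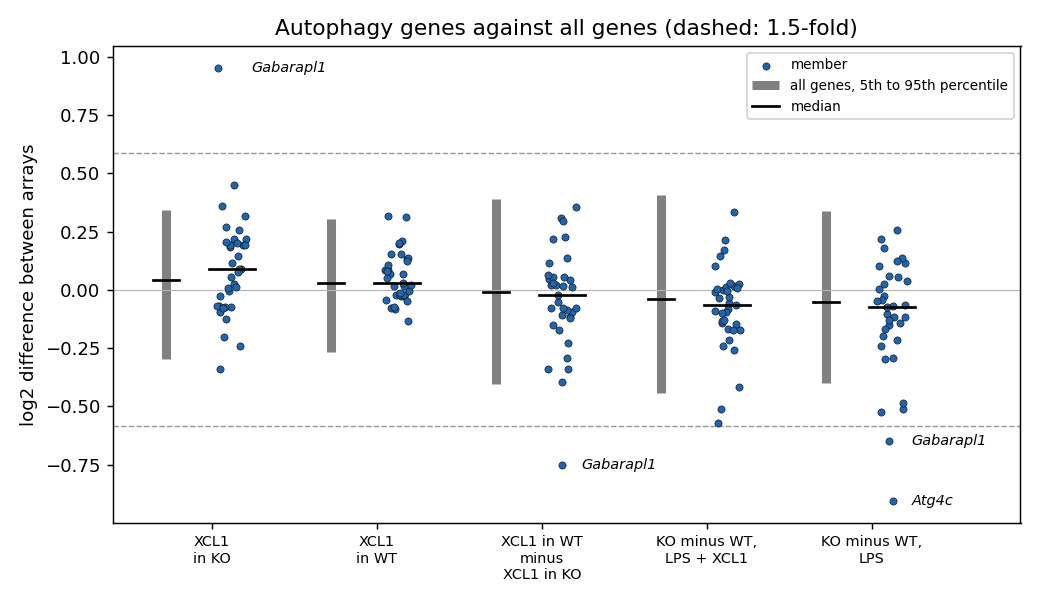
Log2 differences of the 35 autophagy genes (points, spread sideways at random, black line at their median) in the 5 comparisons, beside the 5th to 95th percentile (grey bar) and median (black line) of all 11083 genes. Most points lie within the span of the grey bars, and Gabarapl1 (0.95, -0.75 and -0.65) and Atg4c (-0.91) lie beyond the dashed lines at 1.5-fold.

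Genotype asked which differences accompany loss of the receptor. With LPS and XCL1, 0 of 35 members reached 1.5-fold, against 3.48% of all genes, 1.69% higher and 1.8% lower in KO. With LPS alone 2 of 35 (5.71%) did, Atg4c and Gabarapl1, both lower in KO, against 2.02% of all genes for either direction and 1.01% for lower values. No member reached the threshold in both pairs, against 0.406% of all genes higher and 0.298% lower in KO in both. Over all genes 187 were higher and 199 lower in KO with LPS and XCL1, and 112 and 112 with LPS. Centring each array on its gene median added 0.10 to each genotype difference and moved these counts to 334 and 93 and to 208 and 52.

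Atg4c encodes an autophagin, a cysteine protease of the ATG4 family. Its log2 signals were 5.55 and 5.10 in KO with and without XCL1, against 6.06 and 6.01 in WT. Both KO arrays lay below both WT arrays. The differences were -0.51 with XCL1 and -0.91 without it, and -0.91 was at rank 11 from the lowest of 11083 genes. The KO signal without XCL1 lay below the limit, and measured against the limit the difference was -0.58, or at least 1.49-fold lower, just inside the 1.5-fold threshold. The other 3 proteases showed smaller values, from -0.03 to 0.15 with XCL1 and from -0.14 to -0.05 without it. Atg4a, the 1 X-linked member, had signals of 7.68 and 7.41 in KO and 7.53 and 7.55 in WT.

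Gabarapl1 was lower in KO in the pair with LPS alone and near level in the other pair. The KO minus WT difference was 0.10 with LPS and XCL1 and -0.65 with LPS, a 1.57-fold lower signal. The 0.10 is less than the SD per probe set of 0.23 for that pair. With centring the difference with LPS was -0.55, within 1.5-fold.

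Of the 35 members, 9 had both KO arrays under both WT arrays. They were Ulk2, Atg101, Ambra1, Atg2b, Wipi2, Atg5, Atg7, Atg10 and Atg4c, 25.7% of the members, against 33.2% of all genes. Another 4 members (11.4%), Rb1cc1, Pik3c3, Wipi1 and Gabarapl2, had both KO arrays above both WT arrays, against 18.9% of all genes. Wipi1 passed the limit through KO alone, and with dim signals raised to the limit 3 members (8.57%) were above, against 17.8% of all genes. With centring 7 members (20%) were lower in KO, against 17.9% of all genes, Ambra1 and Atg7 having left, and 9 (25.7%) were higher, against 35.3%. The share lower in KO thus lay under that of all genes as deposited and over it with centring. These differences stand beside the lower mean signals of cDC1, B cell, T cell and plasmacytoid DC markers in KO given above. The cDC1 mean includes the targeted gene Xcr1, the lowest of its list. The higher means of macrophage, neutrophil and red cell markers in KO stand beside these differences too, that of the macrophage list carried mostly by Fcgr1. The part of all these markers was not tested.

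Atg2b, one of the paralogous lipid transfer proteins that feed the growing membrane, gave 6.67 and 6.48 in KO with and without XCL1, against 7.09 and 7.01 in WT. Its genotype differences were -0.42 and -0.52, while its paralog Atg2a stayed between 7.18 and 7.38 on all arrays with differences of -0.08 and -0.06. Ulk2, a kinase related to ULK1, gave 6.95 and 7.15 in KO, against 7.52 and 7.37 in WT. Its difference of -0.57 with XCL1 was the lowest of the members in that pair, and -0.22 was measured without XCL1. Ulk1 itself overlapped between the genotypes, at 6.57 and 6.64 in KO and 6.73 and 6.58 in WT.

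Wipi2 signals were 6.76 and 6.45 in KO with and without XCL1, against 6.94 and 6.96 in WT, with differences of -0.17 and -0.51. Wipi1, another PI3P-binding protein of this family, ran the other way at 5.52 and 5.43 in KO, against 5.18 and 5.17 in WT. Its differences of 0.33 and 0.26 are the highest of the members in each pair, yet both WT signals lay below the limit, and measured against the limit they were 0.09 and 0.00.

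The conjugation enzymes also held several of these members. Atg10, the E2-like enzyme that joins ATG12 to ATG5, gave 6.29 and 6.08 in KO with and without XCL1, against 6.44 and 6.57 in WT, with differences of -0.15 and -0.49. Atg5, the acceptor of ATG12, gave 7.07 and 7.06 in KO, against 7.33 and 7.30 in WT. Its differences of -0.26 and -0.24 were near equal in the 2 pairs. Atg7, the E1-like enzyme of both conjugation systems, gave differences of -0.06 and -0.29. Atg3 and Atg12, the E2-like enzyme for LC3 and the ubiquitin-like protein joined to ATG5, differed by no more than 0.10 in either pair.

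Of the 11 members in the initiation and lipid kinase complexes, 5 had small differences between the genotypes. Becn1 (Beclin 1), Uvrag (a Beclin 1 partner of endosomal traffic), Ambra1 (a Beclin 1 regulator), Atg13 (a ULK complex scaffold) and Rb1cc1 (FIP200, the large ULK complex scaffold) stayed within 0.12 in both pairs. A second probe set, shared between Becn1 and Cntd1 and left out for that reason, lay below the limit at 5.10 to 5.22. Pik3c3, the catalytic subunit VPS34, was 0.17 and 0.22 above WT in KO, while its partner Pik3r4 was at -0.14 and -0.29. Atg101, which stabilises ATG13, was at -0.24 and -0.20.

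**Figure D3:**
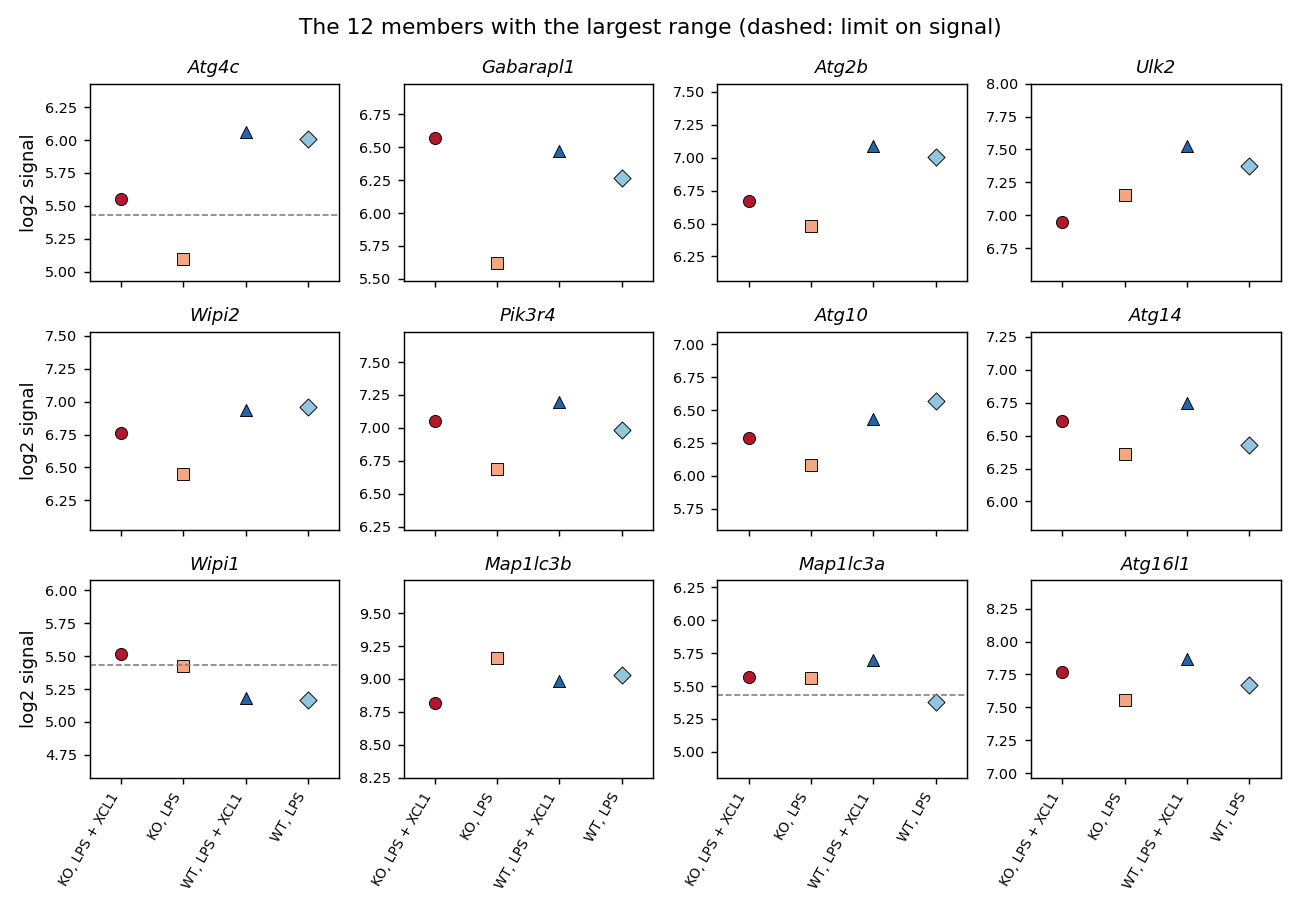
Log2 signals (y axes, each spanning 1.5 log2 units) on the 4 arrays for the 12 autophagy genes with the largest range, with the limit of 5.43 dashed where it falls in the panel. Atg4c and Gabarapl1 are lowest on the KO array with LPS, at 5.10 and 5.62, and Atg4c, Atg2b, Ulk2, Wipi2 and Atg10 have both KO arrays below both WT arrays.

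As a list, the members had a median KO minus WT difference of -0.06 with LPS and XCL1, against -0.04 for all genes, and of -0.08 with LPS, against -0.05 for all genes. In each pair 12 of 35 members (34.3%) were above 0, against 43.2% and 39.8% of all genes. With centring the members' medians were 0.04 and 0.03, so their direction rests on the scaling. The members' median minus that of all genes was -0.03 and -0.02 as deposited, 0.02 and -0.04 with the stricter limit on signal (6.91, which 23 members passed), and 0.00 and -0.02 with cyclic loess. Within 0.2 log2 units lay 27 members (77.1%) with LPS and XCL1, against 59.6% of all genes, and 24 (68.6%) with LPS, against 64.7%.

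**Figure D4:**
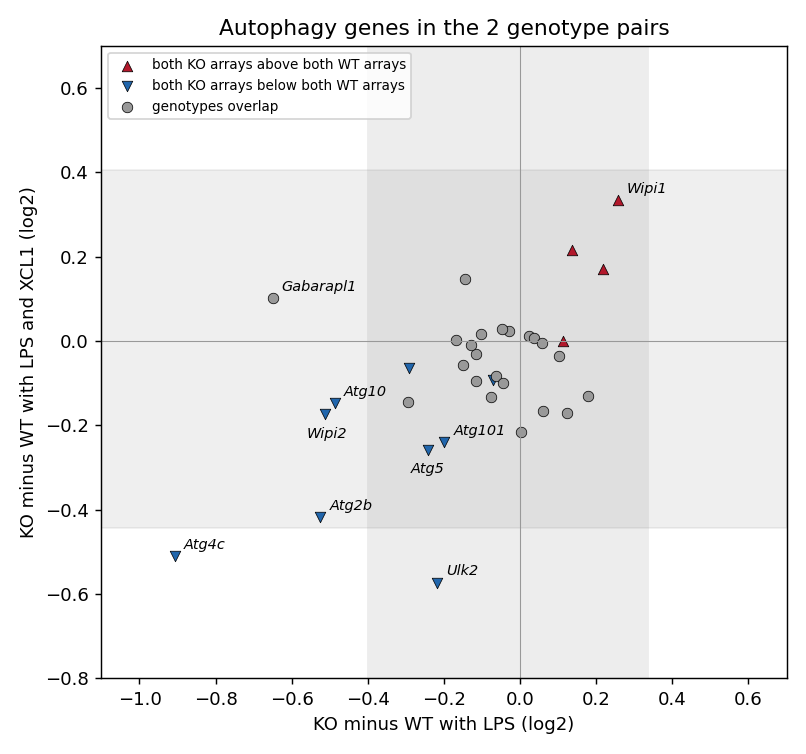
KO minus WT log2 differences of the 35 autophagy genes with LPS alone (x axis) and with LPS and XCL1 (y axis), 2 pairs that share no array, with grey bands over the 5th to 95th percentile of all genes and symbols for whether both KO arrays lie above, below or across the WT arrays. Atg4c (-0.91, -0.51), Atg2b (-0.52, -0.42) and Ulk2 (-0.22, -0.57) lie at the lower left and bottom, Gabarapl1 (-0.65, 0.10) at the left, and most points near the origin.

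Beyond the members, 6 lists of related genes held 67 genes, of which 63 passed the limit. In each of the 5 comparisons 0 of these 63 reached 1.5-fold, against 0.559% to 3.48% of all genes by comparison. Their medians were 0.08 for XCL1 in KO and 0.07 in WT, against 0.04 and 0.03 for all genes. For KO minus WT they were -0.10 with LPS and XCL1 and -0.07 with LPS, against -0.04 and -0.05. With centring the medians of the lists were 0.01, 0.00, 0.00 and 0.03 in the same order. In the nutrient signalling list the largest value was that of Ddit4, an inhibitor of mTORC1 induced by stress, at 0.55 for XCL1 in KO and 0.41 in WT. Its signals were 6.83 with XCL1 and 6.28 without it in KO, and 6.45 and 6.04 in WT, higher on the array with XCL1 in both genotypes. Fundc1, an X-linked mitophagy receptor, had a difference of 0.54 for XCL1 in KO. Measured against the limit it was 0.29, since the signal without XCL1 was 5.17. Vamp8, a SNARE of autophagosome fusion, differed by 0.32 for XCL1 in KO and -0.18 in WT.

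Tecpr1, a tether between autophagosomes and lysosomes, was 0.39 higher with XCL1 in KO and 0.32 in WT, each within 1.5-fold. Tfe3, an X-linked relative of TFEB, was at -0.37 in KO minus WT with LPS and XCL1 and -0.26 with LPS. Cybb, the NADPH oxidase subunit needed for LC3-associated phagocytosis and also X-linked, was at 0.44 and 0.06 in these pairs. The transcription list, with Tfe3, Mitf, Foxo1, Foxo3, Atf4 and Nfe2l2, had 6 of 6 genes below 0 in KO minus WT with LPS and XCL1 and 5 of 6 with LPS, at medians of -0.16 in both pairs, against 56.8% and 60.1% of all genes below 0. With centring 4 of 6 and 3 of 6 were below 0, at medians of -0.06 in both pairs. None of the 6 reached 1.5-fold.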

How the data were processed

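RNA was extracted with TRIzol and hybridised to MoGene 2.0 ST arrays, per the labels' protocols and descriptions. Each deposited value is a log2 signal of a gene-level probe set, made by the authors with RMA, per the labels. Software, version and annotation build: not given in the sources used here. RMA equalises array distributions, so a shift of most genes cannot be seen. No detection calls come with the table, and the limit used is therefore no background measurement.

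Of 41345 probe sets, 23521 had 1 gene symbol in the array's annotation table, 1814 had several (left out) and 16010 were unnamed here. RefSeq (GRCm38.p6) held 23328 of these symbols by gene ID and changed 0. Olfactory receptors, antigen receptor segments, small RNAs and predicted genes (4814 probe sets) were left out, and the probe set with the highest mean stood for a gene. Differences between single arrays were counted at 1.5-fold over genes that reached 5.43, the median of the whole table, on 1 array or more, with no test. Counting was tested on simulated data.

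The members and lists were chosen with earlier results of these data known. Values on all arrays are given for members at 1.5-fold, the 12 with the largest range, the LC3 and GABARAP family and the cargo receptors. Of each related list, up to 4 genes at 1.5-fold, or otherwise the 1 with the largest difference, are named. Ulk1, Atg5, Atg4a and Atg2a beside them, and other values of single members, were chosen after their values were seen. Alternatives were a 2-fold threshold, cyclic loess (limma 3.58.1, span 0.7, 3 iterations), centring, the mean of probe sets, dim signals raised to the limit, and excluded genes kept, and the limit left out or set at the 75th percentile, 6.91. Python 3.11.15, pandas 2.3.3, numpy 2.4.6 and R 4.3.3 were used.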

Additional observations from a re-analysis of the deposited data

Results flagged for a closer look

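The KO minus WT differences of Gabarapl1 were 0.10 with LPS and XCL1, below the SD per probe set of 0.23, and -0.65 with LPS. Each is a difference between single arrays, and the difference between them, 0.75 in size, was not tested. The value with LPS rests on the KO array with LPS (5.62), the lowest of the 4.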

How the results depend on the processing

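Differences between single arrays carry no error, and leaving out an array would leave a group empty. No paired analysis was possible because each group holds 1 array and the labels give no replicate numbers. Counts over all genes were 112 for XCL1 in KO, 62 for XCL1 in WT, 323 for their difference, 386 for KO minus WT with both agents and 224 with LPS alone, and 78 in both genotype pairs. At 2-fold they were 6, 2, 22, 42 and 24, and 11. With the stricter limit the first 5 were 27, 11, 74, 197 and 105. Without a limit the XCL1 counts were 222, 186 and 756 and the count with LPS 352. Raising dim signals to the limit gave 66, 27 and 208 in the XCL1 comparisons, and keeping predicted genes gave 183 and 96 in KO and WT. Centring moved the split for XCL1 to 25 higher and 88 lower in KO and to 13 higher and 65 lower in WT, against 52 and 60 and 25 and 37.

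No autophagy gene passed 2-fold (0 in each comparison). The stricter limit kept 23 members and took out Gabarapl1 and Atg4c, so that 0 were left at 1.5-fold. For KO against WT with LPS, 1 member remained with centring (Atg4c) and 1 with dim signals raised (Gabarapl1). The Gabarapl1 difference for XCL1 in KO ran from 0.89 to 0.95 over the alternatives that kept it. Of 615 values of single genes under alternatives, 7 moved by more than the SD between probe sets, all with dim signals raised to the limit, and 0 called values changed sign.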
